A study of Mus musculus with 2 samples.

Results

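The RNA levels of 10 genes were examined in megakaryocyte-erythroid progenitors (MEP) of the mouse, the bone marrow cells upstream of the red cell and platelet lineages. They were 3 repressors of embryonic and fetal globin genes (Bcl11a, Zbtb7a and Sox6) and 7 genes of the nucleosome remodelling and deacetylase complex, NuRD (Mbd2, Mbd3, Gatad2a, Gatad2b, Mta1, Mta2 and Mta3). They were chosen by symbol, and all 10 were found among the 43346 annotated genes of the tables. The cells were primary cells of adult female C57BL/6J mice aged 5 weeks, no treatment is named, and their polyadenylated RNA was read from both ends. The series holds 1 group of 2 libraries, numbered as biological replicates 1 and 2 and filed under a single donor identifier. The sources used here do not say whether separate animals were used, so the spread between the libraries may be technical. With 1 group there is no comparison between conditions, and differences are given as values without a test.

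The globin genes are expressed in a developmental order, and in definitive red cells the embryonic genes are kept silent. Bcl11a and Zbtb7a are zinc finger proteins that silence these genes, each able to recruit NuRD, and Sox6 is an HMG-box factor that acts with Bcl11a on the mouse embryonic beta-like genes. NuRD joins a Chd helicase, which moves nucleosomes, to the histone deacetylases Hdac1 and Hdac2. Mta proteins form its deacetylase scaffold, Mbd2 or Mbd3 links that core to the helicase side, and Gatad2a or Gatad2b, known as p66 alpha and p66 beta, binds the Mbd subunit. Mbd2 binds methylated CpG sites, whereas mammalian Mbd3 does so poorly, and a complex holds either the one or the other.

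The depth was 79539457 estimated counts over annotated genes for replicate 1 and 65305321 for replicate 2. Levels are given as TPM, transcripts per 1000000 after correction for length, and each interval is the authors' own for quantification error within 1 library. Genes that mark erythroid cells were detected at 1 TPM or more in both libraries for 11 of 13 matched markers, and megakaryocyte markers for 9 of 12. Markers of granulocytes and monocytes were detected for 15 of 16, and their summed level was 33197 TPM in replicate 1 and 19283 TPM in replicate 2. Mpo, Prtn3 and Elane were the highest of these, at 10136 and 6523, 10600 and 5185, and 8624 and 4337 TPM, and Fcgr1 (0.14 and 0.03 TPM) and Cd14 (7.30 and 3.03 TPM) the lowest. The erythroid markers summed to 667 and 815 TPM, led by Blvrb at 205 and 249 TPM, Car2 at 157 and 195 TPM and Klf1, whereas Alas2 (0.35 and 0.42 TPM) and Epb42 (1.12 and 0.84 TPM) were lowest. In bulk RNA a change in the number of cells of a type cannot be told apart from a change in RNA per cell, and which cells held the transcripts described here was not tested.

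All members but Sox6 reached 1 TPM in both libraries, 9 of 10, against 46.9% of 21474 protein-coding genes and 24.7% of all 43346 genes. Their median level was 69.6 TPM in replicate 1 and 76.9 TPM in replicate 2, whereas the median of the 10061 protein-coding genes detected in both was 15.9 and 16.9 TPM. The members spanned a wide range, with Mta1 and Mbd3 highest over all transcript models and Gatad2b and Sox6 far below the rest.

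**Figure D1:**
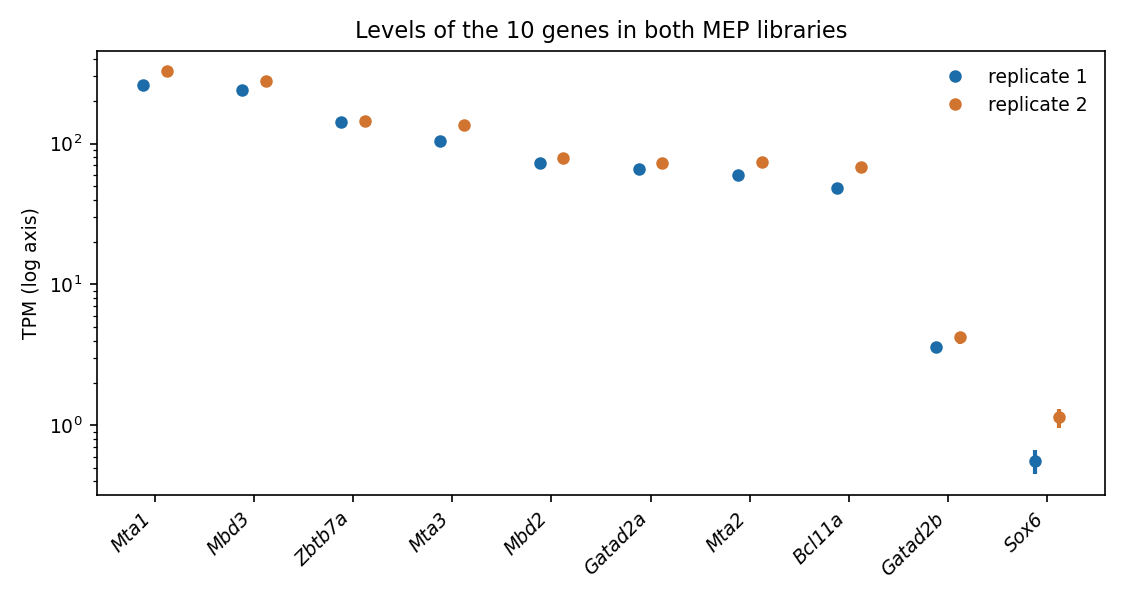
Level of each of the 10 genes in TPM on a log axis, in order of their mean. Points are the deposited value of each library and vertical lines the authors' interval, which is hidden by the point for most genes; Sox6, at 0.56 and 1.15 TPM, lies below the other 9 genes.

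Of the 3 repressors, Zbtb7a was the most abundant. Zbtb7a (ENSMUSG00000035011.11, GRCm38 chromosome 10, 81135220 to 81152995, plus strand), also known as LRF, was at 142 TPM in replicate 1 and 145 TPM in replicate 2. Its mean was 144 ± 2.10 TPM (SD, n = 2), the smallest relative spread of the 10 genes. Bcl11a (ENSMUSG00000000861.11, chromosome 11, 24078056 to 24174123, plus strand) was at 48.75 TPM in replicate 1, with an interval of 47.3 to 49.3. In replicate 2 it was at 68.4 TPM, with an interval of 66.1 to 68.7. Both libraries thus held abundant Bcl11a transcript, and their intervals were separate, with replicate 2 higher.

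Sox6 (ENSMUSG00000051910.9, chromosome 7, 115470872 to 116038796, minus strand) was the lowest member. Its level was 0.56 TPM (interval 0.448 to 0.669) from 108 counts in replicate 1 and 1.15 TPM (interval 0.965 to 1.31) from 190 counts in replicate 2. In the log2 ratio of TPM, averaged over the libraries, Zbtb7a exceeded Bcl11a by 1.32 ± 0.32 (SD, n = 2), a 2.49-fold difference. Zbtb7a exceeded Sox6 by 7.47 ± 0.70 on the same scale, and Bcl11a exceeded Sox6 by 6.15 ± 0.38. With a pseudocount of 1 TPM in place of 0.01 these ratios to Sox6 were 6.31 and 5.00, and in counts not corrected for length Zbtb7a exceeded Bcl11a by 2.12 and Sox6 by 8.29. The intervals were separate in each library, and the 3 repressors stood in the same order in both.

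Bcl11a was read mainly through a single transcript model. Bcl11a-201 held 92.4% and 91.4% of the gene's TPM in replicates 1 and 2. It encodes 773 codons, the length of the form called L in human. Bcl11a-202, with 835 codons, the length of the human XL form, held 3.55% and 4.49%. Bcl11a-203, with 243 codons, the length of the human short form S, had no counts in either library. The models for the L and XL lengths share their first 744 codons and then part, since L splices out of the long exon in which XL goes on. Their coding sequences from GENCODE M21 are shown at that point, with the 30 shared bases in lower case and the 30 bases that follow, which tell the forms apart, in capitals.
Bcl11a-201: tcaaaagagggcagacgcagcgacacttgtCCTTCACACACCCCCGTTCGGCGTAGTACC
Bcl11a-202: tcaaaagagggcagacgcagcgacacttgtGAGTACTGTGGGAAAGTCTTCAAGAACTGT
The full model of Bcl11a-202 is 5989 bases long and that of Bcl11a-201 3061 bases, and in counts not corrected for length Bcl11a-201 still held 90.1% and 88.01%. Both antisense genes inside the Bcl11a locus, Gm12064 and 4930538E20Rik, were listed at 0.

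The start of the leading Bcl11a model lay away from the annotated RefSeq start. Bcl11a-201 begins at position 24078056, which is 2639 bases upstream of the nearest RefSeq start site, at 24080695. Only Bcl11a-204, with 191 codons and 3.35% and 3.05% of the TPM, begins inside the RefSeq promoter window. That window (RefSeq, GRCm38.p6, chr11:24080445-24080744, plus strand) is shown because most of the TPM was assigned to models that begin before it. Matches to CACCC, the core of sites bound by Kruppel-like factors, and to GATAA, the core of GATA sites, were sought on both strands and are in capitals.
Bcl11a: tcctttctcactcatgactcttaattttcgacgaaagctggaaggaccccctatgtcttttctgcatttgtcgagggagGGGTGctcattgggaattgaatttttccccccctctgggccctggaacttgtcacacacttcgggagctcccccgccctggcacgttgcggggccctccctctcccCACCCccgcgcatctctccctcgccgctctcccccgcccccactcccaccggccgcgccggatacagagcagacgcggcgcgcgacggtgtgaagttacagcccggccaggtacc
It held 2 CACCC matches and no GATAA match, and 23 CG dinucleotides. Of 32851 promoter windows of this length, 57.5% held CACCC and 25.4% held GATAA, and the median number of CG dinucleotides was 7. A match to these letters describes the sequence and is not evidence of binding.

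Zbtb7a also rested on 1 model. Zbtb7a-201, of 569 codons and 5938 bases, held 89.6% and 84.8% of the gene's TPM in replicates 1 and 2. Zbtb7a-203 and Zbtb7a-202, which code for the same number of codons, held 7.56% and 10.8%, and 2.12% and 3.35%. Nearly all of its TPM therefore fell on models with the full coding length. Zbtb7a-201 begins exactly at the RefSeq start site, and the promoter window there held 5 CACCC matches, 2 GATAA matches and 31 CG dinucleotides.

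Sox6 has 6 annotated RefSeq start sites spread along the gene, and its few reads fell mostly on a model from an internal one. Sox6-203, of 827 codons, held 90.7% of the TPM in replicate 1 and 89.97% in replicate 2, from 89.7 and 146 counts. It begins 35 bases inside the RefSeq start at position 115846140. Sox6-201 and Sox6-202, which start farther upstream, had no counts, and Sox6-204, which starts at the most upstream site, had 3.25 and 35.5 counts. Sox6-203 is 2825 bases long against 8079 for Sox6-204, and where transcripts began was not measured. The RefSeq window that holds the start of Sox6-203 (GRCm38.p6, chr7:115846091-115846390, minus strand) is shown with matches in capitals.
Sox6: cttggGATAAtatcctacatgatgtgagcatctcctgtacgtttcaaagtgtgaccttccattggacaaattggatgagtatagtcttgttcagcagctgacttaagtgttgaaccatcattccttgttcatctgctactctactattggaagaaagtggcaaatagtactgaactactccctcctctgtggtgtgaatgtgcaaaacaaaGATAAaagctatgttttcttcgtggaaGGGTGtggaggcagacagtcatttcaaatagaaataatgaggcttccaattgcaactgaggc
It held 2 GATAA matches, 1 CACCC match and only 2 CG dinucleotides, against 23 in the Bcl11a window. The antisense gene Sox6os, within the Sox6 locus, was at 0.54 and 0.89 TPM. Separate plus and minus strand signal tracks are listed for each library. No source used here states how strand was treated in counting, so reads of Sox6 and Sox6os may not have been kept apart.

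Bcl11a is also needed for B cells and plasmacytoid dendritic cells, whose markers are given beside it. B-lymphoid markers were detected for 10 of 14 genes and summed to 118 TPM in replicate 1 and 58.3 TPM in replicate 2. Their highest members, by mean, were Cd79a at 32.3 and 11.7 TPM, Pax5 at 24.5 and 6.19 TPM, and Igll1 at 16.7 and 12.5 TPM, and the lowest were Rag1 at 0.09 and 0.03 TPM and Ms4a1 at 0.12 and 0 TPM. Bcl11a itself stood at 48.75 TPM in replicate 1 and 68.4 TPM in replicate 2. Of the plasmacytoid dendritic cell markers 6 of 10 were detected, with a sum of 741 and 572 TPM, led by Irf8 at 422 and 237 TPM, Bst2 at 240.3 and 236 TPM and Runx2 at 47.9 and 67.2 TPM. Their lowest members were at or near 0, with Klk1 listed at 0 in both libraries and Ccr9 at 0.16 and 0.07 TPM. Although their sum was higher in replicate 1, 4 of these genes were higher there and 5 in replicate 2, with a median log2 difference in scaled CPM, replicate 1 minus replicate 2, of -0.34. Markers of stem and multipotent cells were higher in replicate 2 for 10 of 10 genes, with sums of 299 and 458 TPM, and ran between Cd34 (69.1 and 91.9 TPM), Hoxa9 (68.7 and 90.7 TPM) and Meis1 (45.1 and 82.1 TPM) at the top and Mecom (0.46 and 0.81 TPM) and Slamf1 (0.28 and 0.67 TPM) at the bottom. Markers of megakaryocytes summed to 229 and 374 TPM, with Itga2b (115 and 211 TPM) and Gp1bb (49.1 and 62.45 TPM) highest, Clec1b at 0.03 and 0.15 TPM and Gp6 listed at 0. Of 10 markers of T and natural killer cells 1 was detected, Thy1 at 5.25 and 5.87 TPM, ahead of Cd4 (0.43 and 0.93 TPM) and Bcl11b (0.74 and 0.48 TPM), with Ncr1 (0 and 0.10 TPM) and Cd3d (0.01 and 0.05 TPM) lowest and sums of 7.63 and 8.30 TPM. The part of any of these cells in the Bcl11a level was not tested.

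Mta1 led the Mta subunits and all 10 genes. Mta1 (ENSMUSG00000021144.10, chromosome 12, 113098278 to 113137206, plus strand) was at 259.5 TPM in replicate 1 and 327 TPM in replicate 2. Its mean of 293 ± 47.6 TPM (SD, n = 2) lay at percentile 94.9 of detected protein-coding genes. Mta2 (ENSMUSG00000071646.5, chromosome 19, 8941875 to 8952303, plus strand) was at 59.35 and 74.3 TPM. Mta3 (ENSMUSG00000055817.13, chromosome 17, 83706163 to 83821516, plus strand) was at 104 and 136 TPM. Mta1 thus made up 61.3% of the summed Mta level in replicate 1 and 60.9% in replicate 2, with nearly the same share in both libraries although each gene was higher in replicate 2.

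The place of Mta3 depended on which of its transcript models were counted. Mta3-206, a model of 767 bases with 6 exons near the end of the gene and an incomplete coding sequence, held 68.9% and 67.4% of the gene's TPM. The complete models Mta3-203 (513 codons) and Mta3-202 (514 codons) held 14.8% and 17.6%, and 11.4% and 7.72%. Complete coding sequences together held 28.8% of Mta3 TPM in replicate 1 and 26.9% in replicate 2. Less than 50% in both libraries was found for 27.8% of 7401 protein-coding genes at 5 TPM or more, where the median share was 95.1% and 94.0%. Over all models Mta2 lay below Mta3 by a log2 ratio of -0.84 ± 0.04 (SD, n = 2), short of 2-fold. Over complete coding sequences, an alternative chosen after seeing the data, Mta2 lay above Mta3 by 0.87, and in counts not corrected for length by 0.77, from 11309 against 6367 counts in replicate 1 and 10620 against 6484 in replicate 2. Which of Mta2 and Mta3 was more abundant therefore has no single answer in these files.

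Mta1 and Mta2 did not share this dependence. Mta1-202, of 698 codons, held 75.2% and 63.0% of Mta1 TPM, followed by Mta1-205 (703 codons) with 12% and 11.4% and Mta1-204 (698 codons) with 10.5% and 14.2%. The short noncoding model Mta1-207 held 0.71% in replicate 1 and 8.29% in replicate 2. Mta2-201, of 668 codons and the sole complete model of its gene, held 95.2% and 88.2%. Mta2 lay below Mta1 by a log2 ratio of -2.13 ± 0.01, a 4.39-fold difference, and by -2.16 over complete coding sequences. Mta1 exceeded Mta3 by 1.29 ± 0.03 over all models and by 3.04 over complete ones, so the direction held and the size did not.

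**Figure D2:**
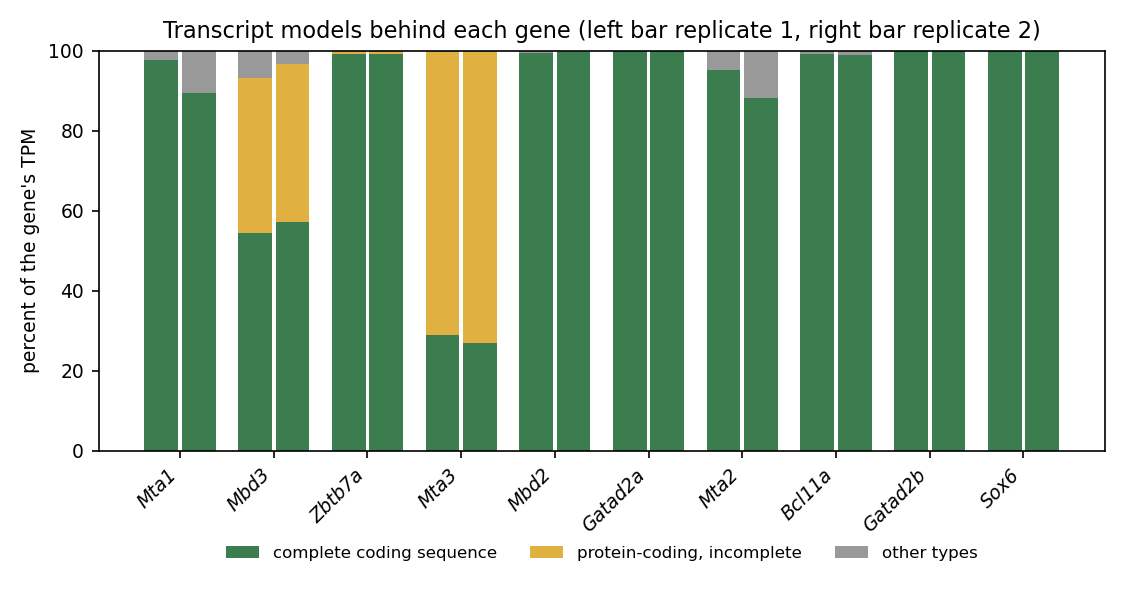
Percent of each gene's TPM on transcript models with a complete coding sequence, on protein-coding models with an incomplete one, and on other transcript types, with replicate 1 as the left and replicate 2 as the right bar. Mta3 and Mbd3 stand out by incomplete models, at 71.0% and 72.7% of Mta3 and 38.9% and 39.7% of Mbd3.

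Over all models Mbd3 was the second most abundant member, and it exceeded Mbd2. Mbd3 (ENSMUSG00000035478.10, chromosome 10, 80392539 to 80399550, minus strand) was at 239 TPM in replicate 1 and 278 TPM in replicate 2. Mbd2 was at 73.3 and 79.5 TPM. The 2 genes did not overlap between libraries, and Mbd3 made up 76.5% and 77.7% of their sum. The log2 ratio of Mbd3 to Mbd2 was 1.76 ± 0.07 (SD, n = 2), a 3.38-fold difference. Over complete coding sequences it was 0.92, or 1.89-fold, under the 2-fold threshold that it passed over all models. On the same models Mbd3 was at 130 and 158 TPM and Zbtb7a at 141 and 144 TPM. Mbd3 thus lay below Zbtb7a in replicate 1 and above it in replicate 2.

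The Mbd3 total was split among several models. Mbd3-206, of 1118 bases with an incomplete coding sequence, held 38.9% and 39.7% of the TPM. Mbd3-201, with 285 codons, held 19.2% and 19.04%. Mbd3-203 (281 codons) held 19.1% and 22.1%, and Mbd3-204 (253 codons) held 15.5% and 15.1%. Mbd3-201 and Mbd3-204 differ by 96 bases near the start of the coding sequence, in the part that encodes the methyl-binding domain. The stretch is shown from GENCODE M21, with the bases that only Mbd3-201 holds in capitals and the shared flanks in lower case.
Mbd3-201: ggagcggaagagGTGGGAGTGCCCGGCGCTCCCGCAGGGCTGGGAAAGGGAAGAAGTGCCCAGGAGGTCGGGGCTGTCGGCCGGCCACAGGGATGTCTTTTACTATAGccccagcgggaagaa
Mbd3-204: ggagcggaagagccccagcgggaagaa
The longer form was higher in both libraries, at 45.8 against 37.15 TPM in replicate 1 and 52.9 against 42.0 TPM in replicate 2.

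Mbd2 (ENSMUSG00000024513.12, chromosome 18, 70568189 to 70626131, plus strand) was carried by a long and a short coding form. Mbd2-202, with 249 codons and 3 exons, held 60.2% of the TPM in replicate 1 and 53.0% in replicate 2. Mbd2-201, with 414 codons and 7 exons, held 39.3% and 46.8%. In counts not corrected for length the order turned, with 3357 and 2553 counts for the short form against 3455 and 3557 for the long form. The levels by length were 44.1 and 42.1 TPM for Mbd2-202 against 28.8 and 37.2 TPM for Mbd2-201, so both forms were present at a similar order of abundance in both libraries.

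Gatad2a made up nearly all of the Gatad2 level. Gatad2a (ENSMUSG00000036180.10, chromosome 8, 69907076 to 69996384, minus strand) was at 65.9 TPM in replicate 1 and 72.9 TPM in replicate 2. Gatad2b (ENSMUSG00000042390.5, chromosome 3, 90293178 to 90363407, plus strand) was at 3.62 TPM (interval 3.25 to 3.93) and 4.22 TPM (interval 3.75 to 4.58), from 423 and 393 counts. The share of Gatad2a in the sum was 94.8% and 94.5%, and the log2 ratio of Gatad2a to Gatad2b was 4.14 ± 0.05 (SD, n = 2), a 17.7-fold difference, and 5.65 in counts not corrected for length. Gatad2b was quantified on 1 model of 1906 bases, Gatad2b-201, of which 1782 are coding. That model begins 47568 bases downstream of the nearest RefSeq start, so reads from exons outside it could not enter the Gatad2b value.

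Gatad2a TPM was split in nearly equal parts between models from 2 annotated starts. The models from the distal site, Gatad2a-201 and Gatad2a-203, held 51.2% of the gene's TPM in replicate 1 and 46.4% in replicate 2. The model from the proximal site, Gatad2a-202, held 48.8% and 53.6%. These code for 630, 614 and 629 codons, and the lengths of all 3 models in the files differ from those in GENCODE M21. Where transcripts began was not measured. The RefSeq windows at the distal site (GRCm38.p6, chr8:69996335-69996634, minus strand) and at the proximal site (chr8:69974334-69974633, minus strand) are shown with matches in capitals.
Gatad2a distal: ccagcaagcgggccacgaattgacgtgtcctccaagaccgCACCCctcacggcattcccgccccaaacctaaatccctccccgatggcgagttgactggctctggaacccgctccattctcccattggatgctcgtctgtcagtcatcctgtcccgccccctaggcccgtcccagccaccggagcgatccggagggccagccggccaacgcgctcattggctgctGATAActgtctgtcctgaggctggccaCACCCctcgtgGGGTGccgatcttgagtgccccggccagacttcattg
Gatad2a proximal: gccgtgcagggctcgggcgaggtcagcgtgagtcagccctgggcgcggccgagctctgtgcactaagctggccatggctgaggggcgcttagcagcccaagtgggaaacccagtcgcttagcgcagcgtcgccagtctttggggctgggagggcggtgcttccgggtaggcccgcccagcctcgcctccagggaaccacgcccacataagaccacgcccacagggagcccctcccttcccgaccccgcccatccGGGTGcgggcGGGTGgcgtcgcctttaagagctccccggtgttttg
The distal window held 3 CACCC matches, 1 GATAA match and 21 CG dinucleotides, and the proximal window 2 CACCC matches, no GATAA match and 26 CG dinucleotides. In GENCODE M21, Gatad2a-201 begins at the distal RefSeq start, and Gatad2a-202 begins 112 bases downstream of the proximal one. The split by site above also takes the GENCODE M21 starts, although the quantified models differ from them in length. RefSeq windows were found for 8 of the 10 members. Those of Mbd3, Mta1 and Mta2 held no CACCC and no GATAA match, with 22, 50 and 30 CG dinucleotides. Both Gatad2b windows held 3 CACCC matches, with 0 and 2 GATAA matches. Each Sox6 window other than the one shown above held at most 1 match in all.

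In order of mean TPM over all models the members were Mta1, Mbd3, Zbtb7a, Mta3, Mbd2, Gatad2a, Mta2, Bcl11a, Gatad2b and Sox6. The ranges over the libraries overlapped for Mta1 and Mbd3, for Gatad2a and Mta2 and for Mta2 and Bcl11a. Within each library, however, Mta1 lay above Mbd3 and Mta2 above Bcl11a with intervals apart. Gatad2a lay above Mta2 in replicate 1 with intervals apart, and below it in replicate 2, where their intervals overlapped. Of 8 ratios between related members, 7 passed 2-fold one way in each library with intervals apart, and the exception was that of Mta2 to Mta3. In both libraries the same transcript led for all 10 genes, 9 of which have several models, where 87.6% of 7486 protein-coding genes with several models kept theirs. The order of members also depended on the models counted. Over complete coding sequences Mta3, at 30.1 and 36.6 TPM, lay below Mbd2, Gatad2a, Mta2 and Bcl11a in both libraries. Mbd3 then lay below Zbtb7a in replicate 1.

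**Figure D3:**
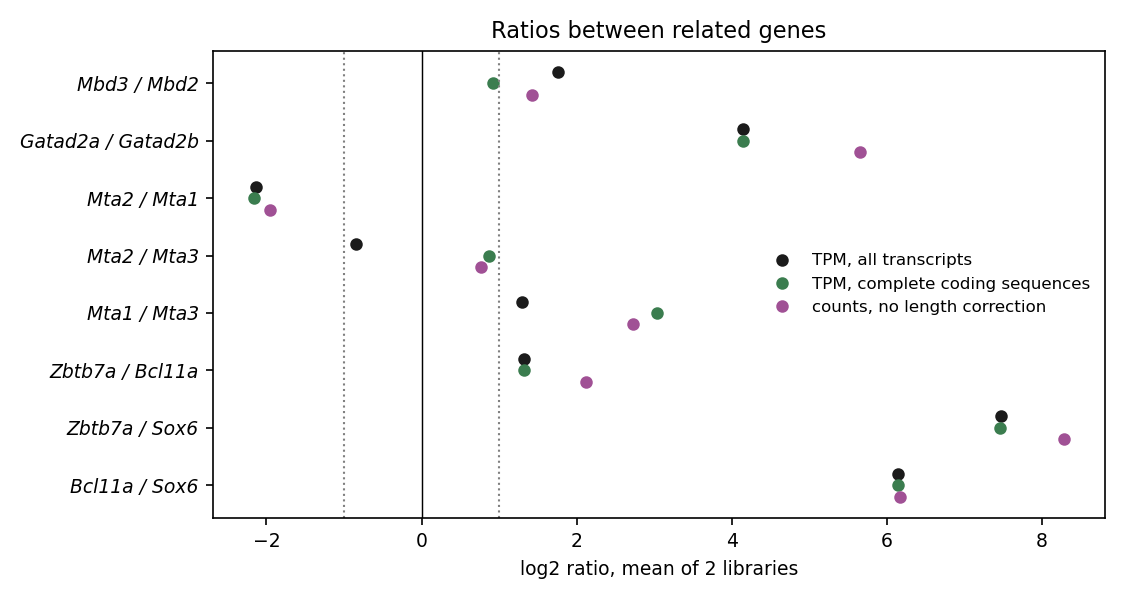
Log2 ratio of the first to the second gene of each pair, as the mean of 2 libraries, in TPM over all transcript models, in TPM over complete coding sequences and in counts not corrected for length; dotted lines mark 2-fold. The ratio of Mta2 to Mta3 lies on opposite sides of 0, at -0.84, 0.87 and 0.77, and that of Mbd3 to Mbd2 falls to 0.92 over complete coding sequences.

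Most genes of the remaining NuRD subunits were also expressed. Of 9 such genes 8 reached 1 TPM in each library, with a median over all 9 of 116 TPM in replicate 1 and 127 TPM in replicate 2, against 73.3 and 79.5 TPM for the 7 NuRD members. The helicase gene Chd4 was at 152 and 227 TPM and Chd3 at 149 and 202 TPM, whereas Chd5 was at 0.16 and 0.24 TPM. Just 6.65% and 10.4% of Chd3 TPM lay on complete coding sequences, compared with 74.2% and 70.3% for Chd4. Hdac1 was at 116 and 121 TPM and Hdac2 at 37.4 and 42.7 TPM. Complete coding sequences held 45.5% and 48.0% of Hdac1 TPM and 98.3% and 100% of Hdac2 TPM. The histone chaperone genes Rbbp4 and Rbbp7 were at 60.5 and 51.1 TPM and at 90.9 and 127 TPM. Cdk2ap1 and Cdk2ap2, small accessory subunits, were at 208 and 225 TPM and at 179 and 127 TPM.

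By subunit, the summed levels were 423 and 537 TPM for Mta, 312 and 357 TPM for Mbd and 69.5 and 77.15 TPM for Gatad2. The same sums were 301 and 429 TPM for Chd, 153 and 164 TPM for Hdac, 151 and 178 TPM for Rbbp and 388 and 352 TPM for Cdk2ap. Gatad2 transcripts were thus the least abundant subunit class in both libraries, and Mta transcripts the most abundant. Over complete coding sequences, Gatad2 remained lowest at 69.5 and 77.15 TPM. Mta was then at 340.1 and 394 TPM, against 379 and 343 TPM for Cdk2ap, so the highest class was no longer the same in both libraries. These are mRNA levels and do not give the protein content of the complex.

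**Figure D4:**
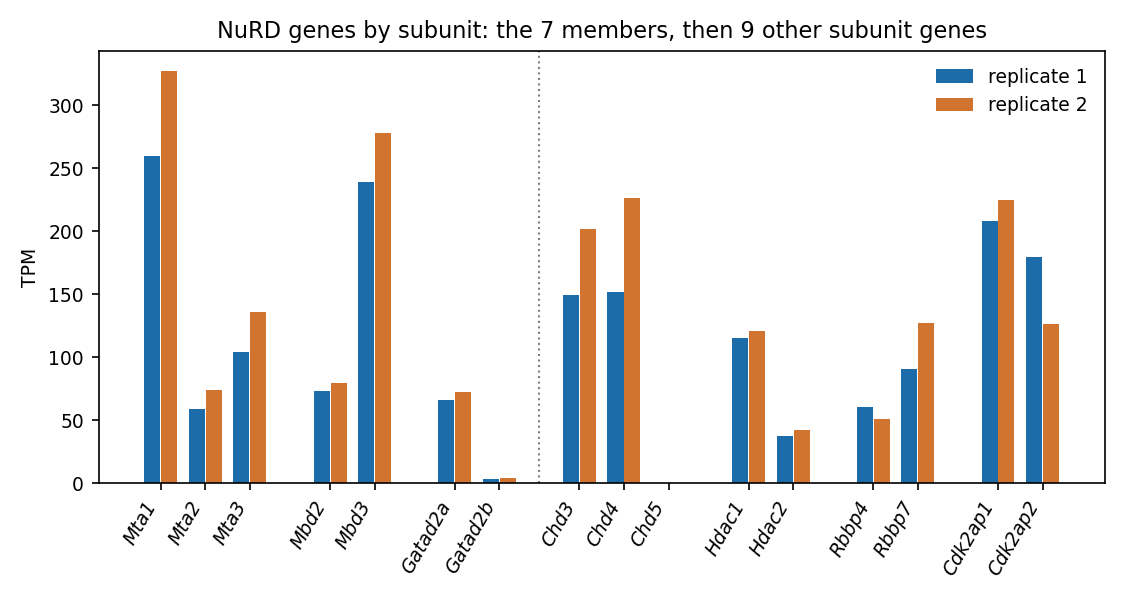
TPM of NuRD genes in each library, grouped by subunit, with the Mta, Mbd and Gatad2 genes left of the dotted line and the other subunits right of it. Gatad2a and Gatad2b sum to 69.5 and 77.15 TPM, below every other class shown.

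Genes that act on or with the repressors were mostly detected, 20 of 23, with a median of 19.05 TPM in replicate 1 and 18.01 TPM in replicate 2. Klf1, an erythroid factor that activates Bcl11a and Zbtb7a, was at 123 and 124 TPM. Myb, known in human cells to act upstream of globin silencing, was at 68.75 and 80.6 TPM, and Nfix at 113 and 144 TPM. Genes of the heme-regulated kinase route, known in human cells to bear on fetal globin, were Eif2ak1 at 22.1 and 17.0 TPM and Atf4 at 652 and 627 TPM. Hic2, a repressor of Bcl11a, was at 5.52 and 7.70 TPM. Fetal-stage RNA-binding genes were near 0, with Lin28b listed at 0 and 0.02 TPM, Igf2bp1 at 0 and 0.04 TPM and Igf2bp3 at 0.05 TPM in each library, although Igf2bp2 was at 1.37 and 2.06 TPM. The corepressor enzyme genes Dnmt1, Ehmt2 and Prmt5 were at 116 and 131 TPM, 449.9 and 470.2 TPM, and 286 and 272 TPM. Complete coding sequences held 100% of Dnmt1 TPM in each library, but 28.8% and 31.9% for Ehmt2 and 9.39% and 11.5% for Prmt5. Kdm1a, the LSD1 demethylase, was at 19.05 and 22.0 TPM. Zfp410, known for its narrow control of Chd4, was at 1.03 and 1.26 TPM.

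Relatives of the members were lower in part. Of 10 paralogs outside the 10 genes, 6 were detected in both libraries. Bcl11b was at 0.74 and 0.48 TPM against 48.75 and 68.4 TPM for Bcl11a as given above. Zbtb7b was at 64.6 and 42.9 TPM, and Zbtb7c at 0.01 TPM in each library. Of the other SoxD genes, Sox13 was at 11.1 and 15.8 TPM and Sox5 at 0.39 and 0.85 TPM, so Sox6 was not the leading member of its family. Among methyl-binding relatives Mbd6 was highest, at 437 and 496 TPM, above Mbd3 in both libraries, with 59.5% and 60.3% of its TPM on complete coding sequences. Mbd1 was at 23.6 and 28.5 TPM, and Mbd4 and Mbd5 were under 2 TPM. Of 8 other recruiters of NuRD, Zfpm1 and Sall2 alone passed 1 TPM in both libraries, with Zfpm1 (Fog1) at 417 and 681 TPM and Sall4 listed at 0. The embryonic globin genes Hbb-y, Hbb-bh1 and Hba-x, targets of this repression in the mouse, had no counts. By contrast, all 4 adult globin genes were detected in both libraries. Hbb-bs was at 280.0 and 713 TPM, with 0.73% and 1.12% of its TPM on complete coding sequences. Hba-a1 was at 498 and 878 TPM, with 1.26% and 0.85% there. Hbb-bt, at 72.75 and 139.7 TPM, and Hba-a2, at 294 and 746 TPM, had 100% there. Within the beta pair and within the alpha pair the genes are near-identical, and the split of reads between them is uncertain.

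In level over the 2 libraries, measured as the distance of log2(TPM + 1) among 65 listed pathway genes, the nearest gene to Bcl11a was Mta2 (0.30) and to Zbtb7a Klf1 (0.31). Mbd2 lay nearest to Myb (0.09), Gatad2a and Mta2 to each other (0.15), Mta3 to Nfix (0.14), Gatad2b to Nr2c2 (0.09) and Sox6 to Sox5 (0.27). Mbd3 lay nearest to Prmt5 (0.26) and Mta1 to Mbd3 (0.26). With 2 libraries this states likeness of level alone.

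Between libraries the members differed by less than 2-fold, apart from Sox6, with Bcl11a next. In log2 CPM after TMM scaling (trimmed mean of M-values, a library scaling), replicate 1 minus replicate 2 was -1.03 for Sox6, -0.41 for Bcl11a and -0.25 for Mta3. The other differences lay between -0.14 for Mta1 and 0.12 for Zbtb7a. Sox6 alone was more than 2-fold apart, 1 of 10 members, against 5.71% of 12402 protein-coding genes and 6.4% of all 13546 genes that passed the count filter. Among those with a mean count of 200 or less, as Sox6 has, 19.6% were that far apart. The count of 1 in 10 is near these shares and is no result about the members.

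On this scale 9 of 10 members were higher in replicate 2, all but Zbtb7a, where 49.1% of protein-coding genes were. In deposited TPM all 10 members were higher in replicate 2, where 59.5% of protein-coding genes were. The median log2 TPM difference of these protein-coding genes, replicate 1 minus replicate 2, was -0.09. The median member difference in scaled CPM was -0.14, against 0.01 for protein-coding genes. The other NuRD subunits had a median of -0.11, with 6 of 9 higher in replicate 2. Granulocyte and monocyte markers were higher in replicate 1 for 14 of the 15 that passed the filter, with a median of 0.74, and stem and multipotent markers had a median of -0.56. The part of this difference between the libraries in the member values was not tested, and 1 library against 1 allows no replicate check.

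**Figure D5:**
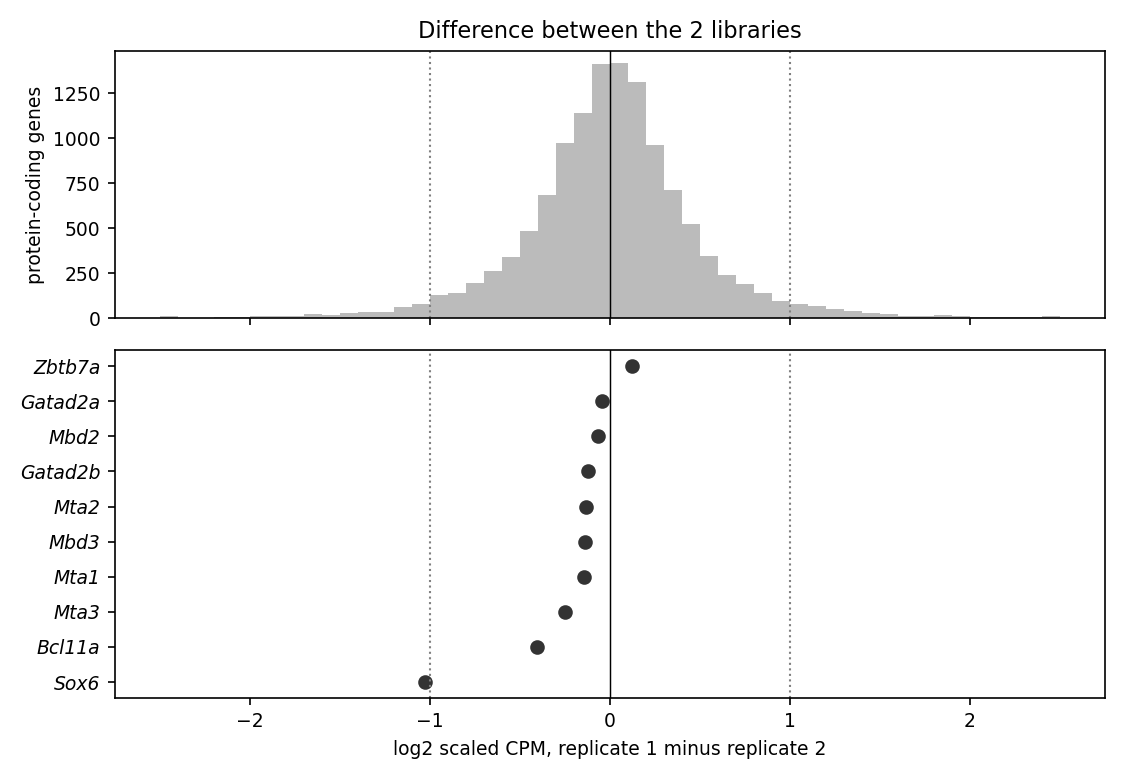
Log2 CPM after TMM scaling, replicate 1 minus replicate 2, as a histogram of protein-coding genes that passed the count filter (upper panel, values beyond 2.5 in either direction gathered in the end bins) and as a point for each of the 10 genes (lower panel); dotted lines mark 2-fold. Sox6, at -1.03, is the only one of the 10 past a dotted line, and Zbtb7a, at 0.12, the only one right of 0.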

How the data were processed

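Each library has a table of genes and one of transcripts. The authors deposited an expected count for each feature, per the file headers, beside TPM and FPKM values (per length, per library), each transcript's percent of its gene, and lower and upper TPM bounds, treated here as a score that the authors deposited because their level is not stated. The authors used mm10 and GENCODE M4, per the text file deposited with each sample; no source used here gives the aligner, the quantification program or the strand setting. Symbols, coding lengths and GRCm38 coordinates came from GENCODE M21 by identifier without version (42462 of 43346 genes and 101510 of 103639 transcripts matched). Of 55 member transcripts, 50 had the same length in both annotations. A model was complete when GENCODE M21 gives it a start and a stop codon and marks no end as not found. Rows that name no gene held 1 and 0 counts and were left out.

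Ratios used TPM with a pseudocount of 0.01. A ratio was called when it went the same way in each library with intervals apart and its mean passed 2-fold (log2 of 1). Differences between libraries used rounded expected counts in edgeR 4.0.16 (R 4.3.3), TMM factors of 0.98 and 1.02, filterByExpr and 2 as prior count. Size factors from DESeq2 1.42.0 were an alternative. All 10 members passed the filter. The difference step was tested on simulated data. Other steps used Python 3.11.15 and pandas 2.3.3. The deposited TPM of a gene can lie outside its own interval, which the files give beside a posterior mean, as 341 and 502 genes did. Of the members, Gatad2a alone did so, in replicate 2, at 72.93 TPM with an upper bound of 72.88. The members and lists were chosen with earlier results of these data known. Genes named were all 10 members, genes of the pathway lists, of each marker list the 3 highest, the 2 lowest by mean TPM and those at 0, the nearest gene in level to each member, and transcripts with a share of 10% or more; transcripts below that were named after their values were seen. The levels of 1 listed paralog and 1 listed marker are not reported here. Intervals cover quantification error only.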

Additional observations from a re-analysis of the deposited data

How the results depend on the processing

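The number of members detected stayed between 8 at 5 TPM and 10 at 0.1 TPM, and was 9 with posterior mean TPM, with FPKM and over complete coding sequences; it was 10 without replicate 1 and 9 without replicate 2. The number of ratios called was 7 of 8 under posterior mean TPM, counts not corrected for length, a pseudocount of 1, no interval condition and with either library left out. A pseudocount of 1 gave 6.31 for Zbtb7a over Sox6, 5.00 for Bcl11a over Sox6 and 3.84 for Gatad2a over Gatad2b. The number was 6 over complete coding sequences, where Mbd3 over Mbd2 was 0.92. By construction that alternative leaves out incomplete models. In counts the uncalled ratio of Mta2 to Mta3 was 0.77 in place of -0.84. Sox6 was the 1 member more than 2-fold apart under DESeq2 size factors, TPM, no filter and a prior count of 0.5. Its log2 difference lies close to the threshold. All 10 members kept 1 leading transcript in both libraries under each share computed. As a mean of log2(TPM + 1), the level of the 10 members was 54.3 TPM in place of a median of 72.9, and that of other NuRD subunits 69.2 in place of 118; with detected genes alone other NuRD subunits were at 136 and the regulators at 35.1 in place of 19.5. Leaving out 1 library gave 69.6 to 76.9 for the members, 116 to 127 for other NuRD subunits and 18.01 to 19.05 for the regulators. No paired analysis was possible because the series has 1 group. Sox6 and Gatad2b rest on the fewest counts of the 10 members.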
